A study of Mus musculus with 25 samples.

Results

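The translation elongation factor genes Eef1a1, Eef1a2, Eef1b2, Eef1d, Eef1g, Eef2 and Eef2k were examined in mouse soleus, a calf muscle. They are 7 of the 52636 genes in the count table, taken as a family by gene symbol. The family was chosen by the level of Eef1a1 in the 2 genotypes, with earlier results of these data known. The difference between genotypes of all 7 genes and the Eef1a1 to Eef1a2 ratio are therefore given as a description, with no test. Exercise, its interaction with genotype and the difference between sexes were not used in the choice and were tested.

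All mice were Dnmt3a flox/flox on a C57BL/6 background and 12 weeks old, so the controls (WT) carried the floxed allele too. Muscle Dnmt3a knockout mice (mD3AKO) carried in addition the transgene mCK-Cre, in which the muscle creatine kinase promoter drives Cre recombinase in muscle fibers and which removes exon 19 of Dnmt3a, a de novo DNA methyltransferase. Cells of the muscle that do not use that promoter keep the gene. Mice were killed 60 min after a 30 min treadmill bout or at rest after the same time on a sham treadmill. RNA-seq of whole soleus covered 5 WT mice at rest, 7 mD3AKO mice at rest, 7 WT mice after exercise and 6 mD3AKO mice after exercise, 1 library each, with 12 females and 13 males in all.

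Elongation adds amino acids to the growing protein. The GTPase eEF1A, made from Eef1a1 or Eef1a2, brings each charged tRNA to the ribosome. The exchange complex eEF1B, with the subunits made from Eef1b2, Eef1d and Eef1g, reloads eEF1A with GTP. eEF2 moves the ribosome on by a codon, and the calcium- and calmodulin-dependent kinase made from Eef2k phosphorylates and inhibits eEF2. Eef1a1 is used in most tissues, whereas in skeletal muscle, heart and neurons Eef1a2 takes its place after birth.

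Both eEF1A genes lie on the minus strand of mm10, Eef1a1 (ENSMUSG00000037742) at chr9:78478449-78489151 and Eef1a2 (ENSMUSG00000016349) at chr2:181147653-181157014. Their proteins of 462 and 463 residues were 92.4% identical, and their coding sequences of 1386 and 1389 bases were 80.6% identical over 1384 aligned bases. The first 90 coding bases of each are shown because reads must tell the pair apart there, with capitals at the 15 positions that differ, from the GENCODE M21 transcripts.
Eef1a1: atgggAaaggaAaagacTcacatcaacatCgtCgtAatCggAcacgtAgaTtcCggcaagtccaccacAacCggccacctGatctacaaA
Eef1a2: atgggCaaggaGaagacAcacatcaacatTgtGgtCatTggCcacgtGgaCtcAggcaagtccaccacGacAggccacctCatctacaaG
The longest run of identical bases anywhere in the aligned coding sequences was 23, against reads of 75 bases. Transcripts of the pair shared 0 stretches of 75 bases. By contrast, 51.5% of the 31-base stretches of Eef1a1 transcripts also occurred in other genes, 22 of them pseudogenes, against 0% for Eef1a2. The level of Eef1a1 may therefore depend on how reads that match several places were counted, which is not given in the sources used here. Stretches of read length, 75 bases, were compared only within the pair and not with these other genes. The 9 pseudogene copies of Eef1a1 in the table held 0.641% as many counts as Eef1a1 itself, and Gm6548, at a mean of 1.82 CPM (counts per 1000000 counts of the scaled library), was the only copy of Eef1a1 above 1 CPM.

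The 250 bases before the RefSeq start of each eEF1A gene are shown because Dnmt3a methylates cytosines in CpG pairs, which are in capitals (RefSeq, GRCm38.p6, printed 5′ to 3′ on the gene's strand). RefSeq gives Eef1a1 the shorter span chr9:78478453-78481724, so its window, chr9:78481725-78481974, lies inside the longer GENCODE span above, whose start is farther upstream. The window of Eef1a2 is chr2:181157016-181157265.
Eef1a1: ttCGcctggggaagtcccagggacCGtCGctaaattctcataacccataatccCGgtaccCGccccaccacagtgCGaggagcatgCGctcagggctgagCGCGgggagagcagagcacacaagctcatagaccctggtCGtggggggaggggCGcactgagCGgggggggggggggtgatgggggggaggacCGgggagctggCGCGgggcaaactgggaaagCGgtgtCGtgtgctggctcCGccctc
Eef1a2: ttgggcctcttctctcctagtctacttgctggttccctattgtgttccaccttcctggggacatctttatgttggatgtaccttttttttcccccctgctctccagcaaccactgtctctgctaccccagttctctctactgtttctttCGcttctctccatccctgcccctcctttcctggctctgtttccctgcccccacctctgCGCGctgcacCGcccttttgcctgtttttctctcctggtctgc
The Eef1a1 window held 18 CpG pairs and that of Eef1a2 held 4, with a median of 6 over 32851 such windows of RefSeq. Fewer CpG pairs than in the Eef1a1 window were found in 78.3% of all windows, and fewer than in the Eef1a2 window in 37.8%. Of the other members, Eef1b2 had 19 CpG pairs in its window, Eef2 had 23, and the 3 windows of Eef2k had 17, 14 and 4. DNA methylation was not analysed here, so these counts describe the sequence only.

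The other members lie apart from each other in mm10, Eef1b2 at chr1:63176825-63180486, Eef1d at chr15:75894796-75909556, Eef1g at chr19:8967041-8978479, Eef2 at chr10:81176631-81182498 and Eef2k at chr7:120842831-120907450, with Eef1d alone on the minus strand. Their exons were counted as the union over 9, 18, 6, 3 and 9 transcripts. On the same strand, exons of Eef1a1 overlap those of the miRNA gene Gm26377 by 108 bases and exons of Eef1b2 those of Gm27390, a small RNA gene, by 176 bases. Exons of Eef2k overlap those of Gm15774, an antisense gene, by 101 bases, and exons of Eef1b2 overlap those of Ndufs1 on the opposite strand by 9 bases. Reads from the stretches on the same strand cannot be assigned with certainty, nor, since the strand setting of the counting is not known, those from the opposite ones. As in Eef1a1, much of Eef1g (47.6% of its 31-base stretches) recurs in other genes, of which 10 are pseudogenes, against 21.2% for Eef2, 13.2% for Eef1b2 and 8.64% for Eef1d.

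Libraries held 22671457 to 37431801 counts assigned to genes, and each member had at least 818 counts in every library. The library of mD3AKO mouse 15 at rest had the fewest counts, and ribosomal RNA genes took 39.5% of them. In the remaining 24 libraries they took 7.76% to 13.0%. Dnmt3a ran from 93.4 to 130.5 CPM in WT and from 34.6 to 53.9 CPM in mD3AKO, with no overlap. All 12 muscle fiber markers were present and their summed level was at least 109900 CPM in every library. Fewer cells of a type and less RNA per cell cannot be told apart in whole muscle. All 7 members passed the filter on low counts that kept 16340 genes.

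Eef1a2 was the most abundant member per length and Eef2k the least. Per kb of merged exons, Eef1a2 had a mean of 689 CPM per kb (561 to 837 over the 25 mice), ranking 56th of the 16340 tested genes. Eef2 followed at 503.5 CPM per kb (381 to 616) and Eef1a1 at 224 CPM per kb (167 to 310). The exchange factor subunits were lower, with Eef1g at 89.5 CPM per kb (78.1 to 107), Eef1b2 at 57.1 CPM per kb (49.9 to 67.6) and Eef1d at 21.4 CPM per kb (18.2 to 24.3). Eef2k, the kinase, was at 6.39 CPM per kb (5.23 to 8.22). In the plot of levels per length, neighbouring genes did not overlap over the 25 mice apart from Eef1a2 and Eef2, and Eef1a2 was above Eef2 in 25 of 25 mice. The order depended on the length used. Per kb of coding sequence Eef1b2 was at 214 and Eef1g at 177.5 CPM per kb, with Eef1b2 higher in 25 of 25 mice. Eef2 and Eef1a1 no longer stood apart per longest transcript or per coding sequence, with overlapping ranges and Eef2 higher in 24 of 25 mice in each case. The 7 genes together took 0.268% of counts in the library of mouse 15 and 0.375% to 0.493% in the others.

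**Figure D1:**
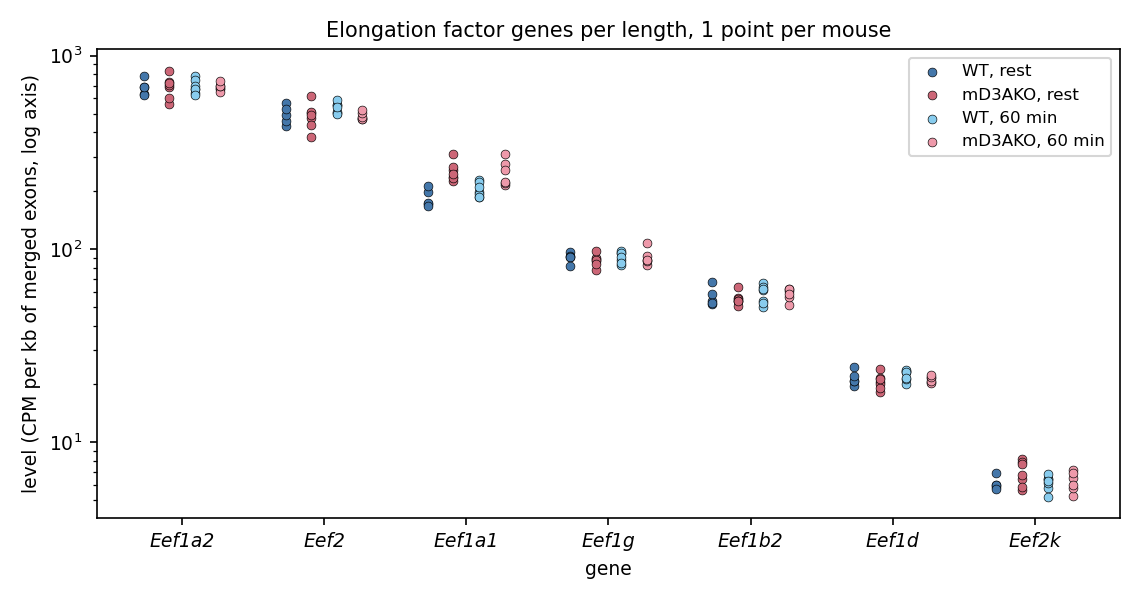
Level of each elongation factor gene in CPM per kb of merged exons (log axis), 1 point per mouse, colored by genotype and time. Eef1a2 and Eef2 lie at the top with overlapping ranges, Eef1a1 below them between 167 and 310, and Eef2k at the bottom between 5.23 and 8.22.

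Eef1a1 was higher in mD3AKO than in WT soleus, at rest and 60 min after exercise, while Eef1a2 differed between genotypes by less than its spread between mice. At rest the WT females had 488 and 529.8 CPM of Eef1a1 and the WT males 424, 431.5 and 416.5 CPM. The mD3AKO mice at rest ranged from 561 to 771 CPM with a median of 608 CPM. All 7 were therefore above all 5 WT mice at rest, a separation in either direction that was found in 0.208% of tested genes. After exercise WT mice ranged from 462.5 to 563 CPM with a median of 490.0 CPM, and mD3AKO mice from 536 to 773.5 CPM with a median of 594 CPM. The groups overlapped there, with 3 of 6 mD3AKO mice above all 7 WT mice, and groups without overlap were found in 0.251% of tested genes.

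At rest Eef1a1 averaged 458 CPM with an SD of 49.0 over the 5 WT mice, and 628 CPM with an SD of 71.5 over the 7 mD3AKO mice. After exercise the means were 504 CPM (SD 40.8, n = 7) for WT and 622 CPM (SD 95.3, n = 6) for mD3AKO. The fitted log2 difference between genotypes was 0.46 (SE 0.10) at rest, 0.30 (SE 0.09) after exercise and 0.38 (SE 0.07) over both, a fold of 1.37, 1.23 and 1.30. These values chose the family and are not tested. Over all genes, 0.269% of tested genes were called for genotype (44 of 16340, 37 of them higher in mD3AKO). The test was edgeR's quasi-likelihood test at an adjusted p under 0.05. The alternative settings described below called 6 to 97 genes. Of females, WT mice had 462.5 to 563 CPM (n = 6) and mD3AKO mice 536 to 687 CPM (n = 6). Of males, WT mice had 416.5 to 490.0 CPM (n = 6) and mD3AKO mice 545.5 to 773.5 CPM (n = 7). The males of the genotypes did not overlap, which held for 0.263% of tested genes, and the females did, with 0.288% of tested genes without overlap. The fitted log2 difference was 0.28 in females alone and 0.47 in males alone, and the difference between these was not tested.

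Eef1a2 at rest was at 1635 and 1439 CPM in the WT females and at 1326, 1426 and 1307 CPM in the WT males. Over the mD3AKO mice at rest it ran from 1170 to 1744 CPM with a median of 1463 CPM, so the mD3AKO mice reached both above and below the WT mice. After exercise it ran from 1309 to 1643 CPM in WT (median 1398) and from 1356 to 1540 CPM in mD3AKO (median 1434). The log2 difference between genotypes was 0.00 (SE 0.06), an interval of 0.92 to 1.09 in fold.

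The ratio of Eef1a1 to Eef1a2 per kb of merged exons was below 1 in every library, from 0.235 to 0.551. At rest it was 0.269 ± 0.0232 (SD, n = 5) in WT and 0.373 ± 0.0898 (SD, n = 7) in mD3AKO, and after exercise 0.2945 ± 0.0347 (SD, n = 7) and 0.362 ± 0.0539 (SD, n = 6). At rest the WT mice had ratios of 0.249, 0.308, 0.267, 0.253 and 0.266, and the mD3AKO mice ran from 0.305 to 0.551 with a median of 0.335. A single WT mouse, the female numbered 20, overlapped the mD3AKO range at rest. After exercise WT mice ran from 0.235 to 0.333 (median 0.301) and mD3AKO mice from 0.315 to 0.446 (median 0.3405), with 4 of 6 mD3AKO mice above all 7 WT mice. The highest ratio, 0.551, came from mD3AKO mouse 7 at rest, which had at once the lowest Eef1a2 of all mice (1170 CPM) and an Eef1a1 of 771 CPM. Without that mouse the mD3AKO mean at rest was 0.344. As a share of the summed eEF1A level per kb, Eef1a1 made up 19.05% to 25.0% in WT and 23.4% to 35.5% in mD3AKO mice. Summed over the pair, WT mice averaged 883 CPM per kb (SD 64.8, n = 12) and mD3AKO mice 941 CPM per kb (SD 64.2, n = 13).

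**Figure D2:**
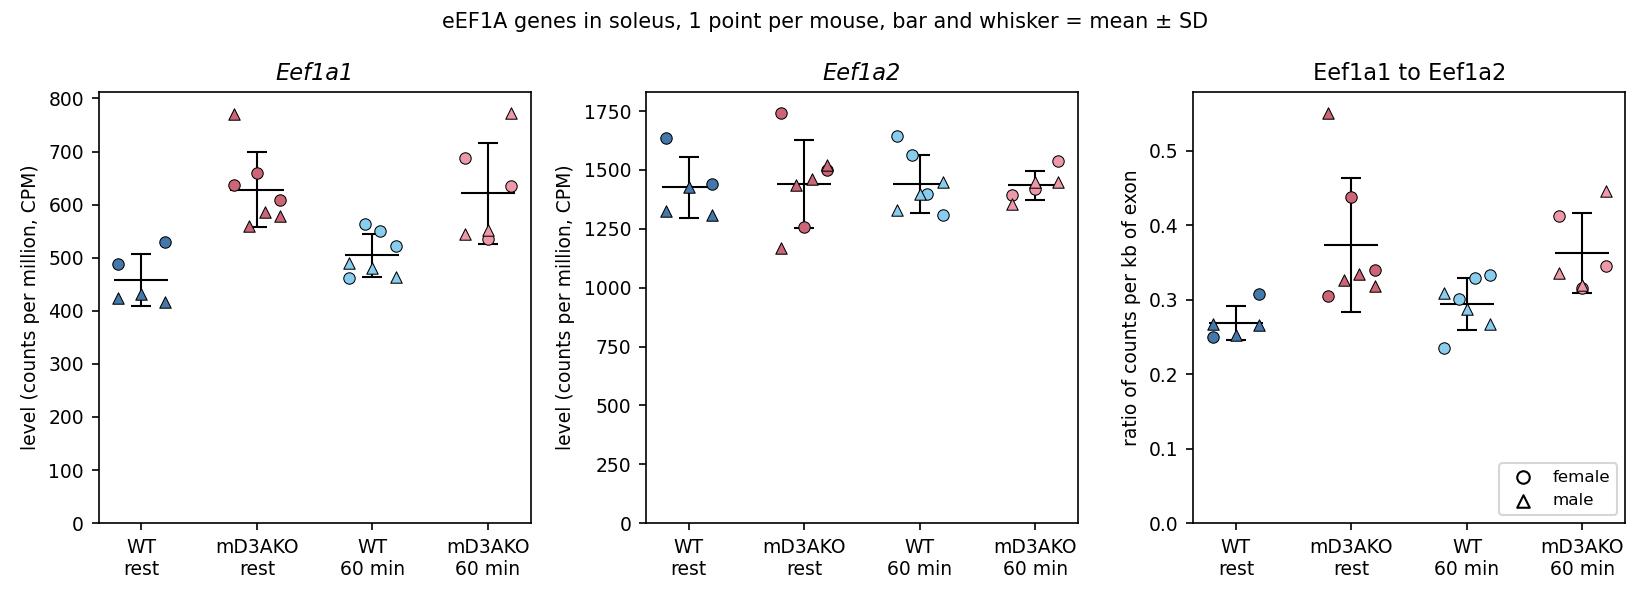
Eef1a1 and Eef1a2 in CPM and their ratio per kb of merged exons in each mouse, by genotype and time (circles, females; triangles, males; bar and whisker, mean ± SD of 5 to 7 mice). Eef1a1 at rest separates the genotypes (416.5 to 529.8 CPM in WT, 561 to 771 CPM in mD3AKO), whereas Eef1a2 overlaps between all 4 groups.

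Of 7 markers of developing muscle tested, 1 was called higher in mD3AKO, Myh8, the perinatal myosin heavy chain, with a mean of 8.76 CPM over 12 WT mice (SD 3.77) against 93.1 CPM over 13 mD3AKO mice (SD 56.8; fold 10.5, log2 3.39, SE 0.33, edgeR adjusted p = 7.10e-07). Myog, a myogenic transcription factor, differed by log2 0.96 (adjusted p = 0.054) and Chrna1, an acetylcholine receptor subunit, by log2 0.44 (adjusted p = 0.122). Myh3, Chrng, Ncam1 and Actc1 differed by log2 0.70, 0.78, 0.10 and 0.07 with adjusted p of 0.835 or more. The median over the list was 0.70, against 0.01 over all tested genes. The summed level of the list, Myh8 included, ran from 116 to 197 CPM in WT (median 151). In mD3AKO it ran from 168 to 780 CPM (median 239), and no marker was at 0. The part of the list in the Eef1a1 difference was not tested. Of 7 satellite cell markers, 1 was called higher in mD3AKO, the stem cell factor Pax7 (log2 0.48, SE 0.11, adjusted p = 0.0384), and 0 were called without the library of mouse 15. The list had a median of 0.06, with values on either side of 0, from -0.14 for Cdh15 up to that of Pax7. Of the other marker lists (with 5 of 7 immune cell markers tested) 0 tested genes were called for genotype. The 5 adipocyte markers were among these, with log2 differences of -0.81 to -0.66 (median -0.69, edgeR adjusted p of 0.893 or more). Their summed level ran from 16.6 to 234 CPM in WT and from 9.94 to 212.5 CPM in mD3AKO, no marker was at 0, and their part in the values of the members was not tested.

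By the correlation of log2 CPM over all 25 mice, the protein-coding genes above a mean of 10 CPM that were most like Eef1a1 were Myh8 (Pearson's r = 0.83, Spearman's rho = 0.86), Itm2a (r = 0.74), Clptm1l (r = 0.74), Tcf12 (r = 0.73) and Rras2 (r = 0.72). The points share genotype, which separates the mice by Myh8 and in part by Eef1a1 (9 of 13 mD3AKO mice above all 12 WT mice), so these values rank the genes and do not measure a relation between mice. Within genotype Myh8 had r = 0.65 over 12 WT mice and 0.45 over 13 mD3AKO mice. Itm2a had 0.84 and 0.37, Clptm1l 0.61 and 0.76, Tcf12 0.26 and 0.73, and Rras2 0.53 and 0.76. Sex was not removed from these values. WT females had 7.79 to 18.0 CPM of Myh8 and WT males 4.08 to 8.92 CPM, with mean Eef1a1 of 519 and 451 CPM. The mean Eef1a1 of mD3AKO females and males was 627 and 624 CPM. Within the mD3AKO mice the highest Myh8 (220.6 CPM, mouse 2) came with 636 CPM of Eef1a1, and the highest Eef1a1 (773.5 CPM, mouse 19) with 67.0 CPM of Myh8.

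**Figure D3:**
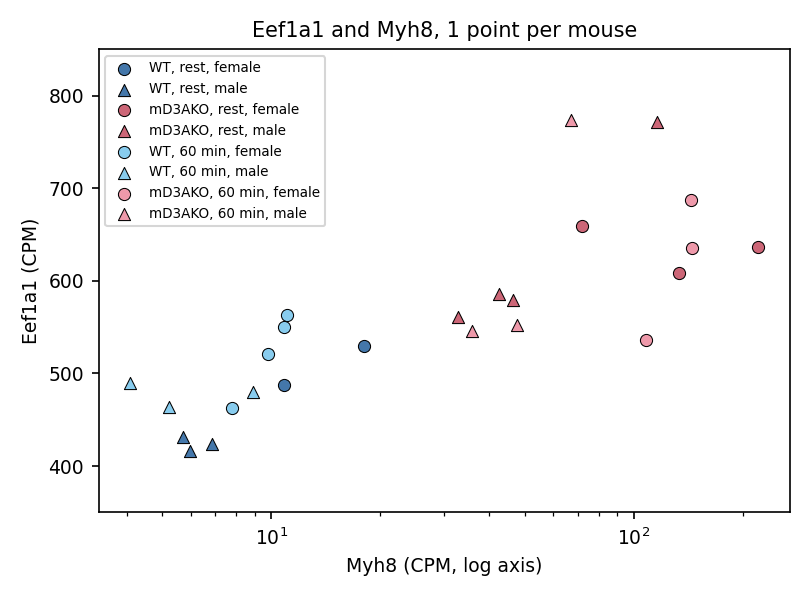
Eef1a1 (CPM) against Myh8 (CPM, log axis), 1 point per mouse, colored by genotype and time (circles, females; triangles, males). WT mice lie at 4.08 to 18.0 CPM of Myh8 and mD3AKO mice at 32.7 to 220.6 CPM, with no overlap.

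None of the 7 members passed the test for a change 60 min after exercise. Of all tested genes 10.4% were called for exercise (edgeR quasi-likelihood test, adjusted p under 0.05), against 0 of the 7 members. The called genes were 1699 of 16340, 932 higher and 767 lower. At an unadjusted p under 0.05 there were 3488 of the 16340 tested genes and 0 members. By DESeq2 0 members were called. Over all genes, the 11 alternatives other than leaving out a mouse, DESeq2 among them, called 511 to 2044 for exercise. Eef1a1 differed by log2 0.06 (SE 0.07, adjusted p = 0.6845 by edgeR), an interval of 0.950 to 1.15 in fold at 95% confidence. Eef1a2 differed by log2 0.00 (SE 0.06, adjusted p = 0.988), with 0.922 to 1.09 in fold. Rested and exercised mice overlapped for both genes in each genotype.

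The exchange factor subunits gave narrower intervals. Eef1b2, a catalytic subunit, ran from 127.5 to 171 CPM at rest and from 126 to 168 CPM after exercise. Its log2 difference with exercise was 0.06 (SE 0.05, edgeR adjusted p = 0.596). Eef1d, the second catalytic subunit, ran from 107.6 to 143.5 CPM at rest and from 118 to 139 CPM after exercise (log2 0.05, SE 0.04, adjusted p = 0.633). Eef1g, the structural subunit, ran from 203 to 253 CPM at rest and from 214 to 278 CPM after exercise (log2 0.03, SE 0.04, adjusted p = 0.803). The intervals in fold of the 3 subunits were 0.966 to 1.13, 0.9705 to 1.10 and 0.957 to 1.09. At rest and after exercise, each subunit covered much the same range.

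Eef2 was at 1894 and 1762 CPM in the WT females at rest and at 1438, 1520 and 1647 CPM in the WT males. WT mice after exercise ran from 1657 to 1960 CPM with a median of 1798 CPM, so 7 of 7 were above the median at rest and 1 of 7 was above every rested WT mouse. The mD3AKO mice ran from 1265 to 2048 CPM at rest (median 1637) and from 1564 to 1735 CPM after exercise (median 1586). The exercised mD3AKO mice fell within the span of the rested ones. The log2 difference with exercise was 0.05 (SE 0.06, edgeR adjusted p = 0.711), with 0.11 (SE 0.09) in WT and 0.00 (SE 0.09) in mD3AKO. After exercise 4 of 6 mD3AKO mice were below all 7 WT mice (log2 difference of the genotypes -0.14, SE 0.09, not tested).

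Eef2k, the kinase of eEF2, ran from 42.3 to 51.4 CPM in WT mice at rest (43.5, 42.3, 44.3, 44.3 and 51.4 CPM) and from 41.8 to 60.9 CPM in mD3AKO mice at rest with a median of 49.9 CPM. After exercise WT mice had 38.7 to 50.4 CPM (median 46.4) and mD3AKO mice 39.2 to 53.0 CPM (median 46.2). All 4 groups overlapped, and the log2 difference with exercise was -0.06 (SE 0.06, edgeR adjusted p = 0.652), with 0.01 (SE 0.09) in WT and -0.14 (SE 0.09) in mD3AKO. The genotypes differed by log2 0.18 (SE 0.09) at rest and 0.03 (SE 0.09) after exercise, given as a description.

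No member had groups without overlap between rest and exercise, in WT (3.24% of tested genes had) or in mD3AKO (2.24% had). The response to exercise was also not shown to differ between genotypes: 0% of tested genes were called for the interaction (0 of 16340, with 403 at an unadjusted p under 0.05, and 0 by DESeq2), and 0 of the 7 members. The largest interactions among members were -0.16 in log2 for Eef2k (SE 0.13) and -0.16 for Eef1a1 (SE 0.13), each with an edgeR adjusted p of 1.00. For Eef1a1 the interval of the interaction was 0.744 to 1.08 in fold. In the plot of effects, each exercise interval spans 0.

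**Figure D4:**
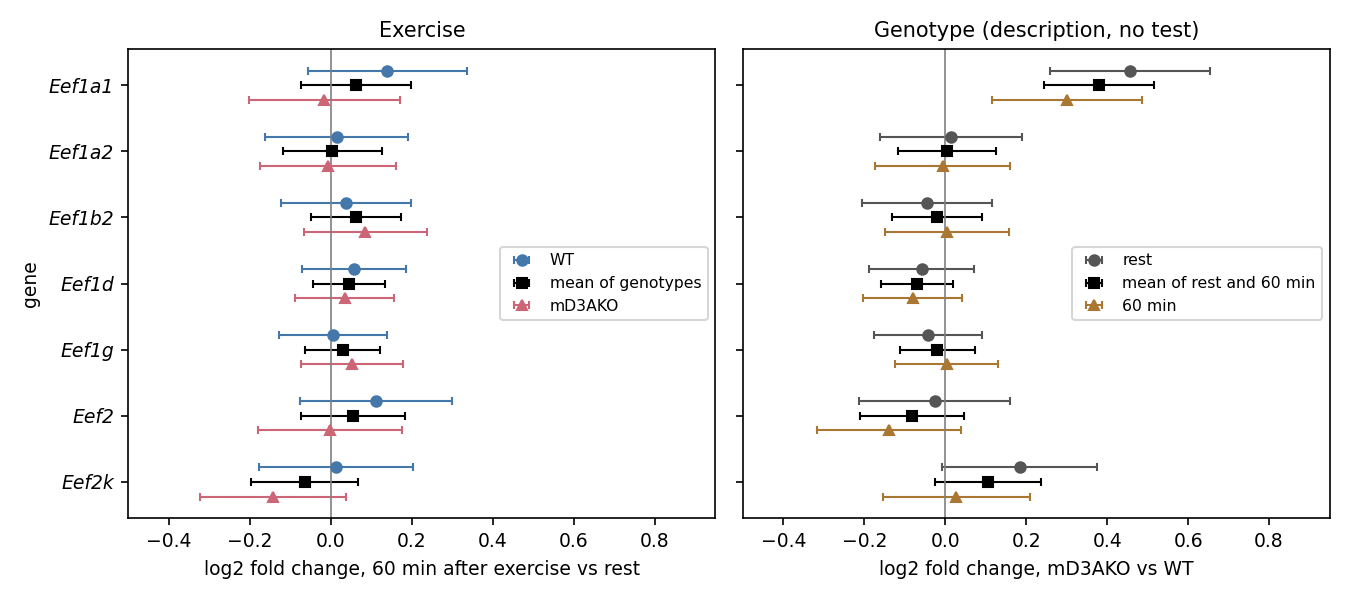
Log2 fold changes of the 7 genes with 95% intervals, for exercise (left; in each genotype and as the mean of genotypes) and for genotype (right; at rest, after exercise and over both). All 21 exercise intervals span 0, and Eef1a1 stands on the right at 0.46 at rest, 0.30 after exercise and 0.38 over both.

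Related gene lists gave few calls with exercise. Among 7 other cytosolic genes and 5 mitochondrial elongation factors, 0 were called, with median log2 differences of 0.02 and 0.02. The 7 were Eif5a, Eif5a2, Eefsec, Eef1e1, Vars, Hbs1l and Pelo, of which not all are elongation factors. Of 11 tested enzymes that modify eEF1A or eEF2, 0 were called (median 0.00), with 1 called without the library of mouse 15. Of 20 kinases and phosphatases upstream of Eef2k or eEF2, 1 fell, Prkab1, a regulatory subunit of AMP-activated protein kinase, from 8.01 to 6.64 CPM (log2 -0.27, SE 0.06, edgeR adjusted p = 0.00266). Of 41 cytosolic initiation factors and their regulators, 1 rose. It was Eif4a1, the RNA helicase of the cap-binding complex, from 74.1 to 86.6 CPM (log2 0.23, SE 0.05, edgeR adjusted p = 0.00477). Of 79 cytosolic ribosomal proteins 0 were called (median 0.05), and of 4 termination and recycling factors 0 (median 0.06), with 1 called without the library of mouse 15. The median of all tested genes was 0.00, and 10.4% of them were called. For genotype 0 genes of these 7 translation lists were called, and for the interaction 0.

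Of 7 endothelial markers 4 fell with exercise (Kdr, Tek, Emcn and Cdh5, log2 -0.58 to -0.23). Pecam1, Tie1 and Vwf did not pass (log2 -0.09, -0.11 and -0.03), and the summed level of the 7 ran from 419 to 567 CPM at rest and from 362 to 477 CPM after exercise. Of 5 smooth muscle and pericyte markers 2 fell (Pdgfrb and Kcnj8), while Acta2, Myh11 and Rgs5 had log2 differences of 0.11, 0.08 and 0.03 and did not pass. Of 7 satellite cell markers 2 fell (Myf5 and Pax7), and the other 5 did not pass, with log2 differences from -0.39 (Myod1) to 0.13 (Chodl). No marker of these lists was at 0. Of the tested markers of muscle fibers, developing muscle, fibroblasts, immune cells (5 of 7 tested), adipocytes, Schwann cells and blood, 0 were called for exercise. The 8 fibroblast markers had log2 differences of -0.44 to -0.10 (median -0.33), and 1 of them, Pdgfra, was called without the library of mouse 15 (edgeR adjusted p = 0.0238). Their part in the level of the members was not tested.

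The 7 genes did not differ between sexes past the threshold, at which 8.65% of tested genes were called (1413 of 16340, 824 higher and 589 lower in males). Eef2k had the smallest p, with 44.5 ± 3.55 CPM in females (SD, n = 12) and 49.9 ± 6.24 CPM in males (SD, n = 13). Its log2 difference was 0.155 (SE 0.06, unadjusted p = 0.0174, edgeR adjusted p = 0.114), and 7 of 13 males were above all females. Without mD3AKO mouse 7, a male with 41.8 CPM, it was called (log2 0.18, edgeR adjusted p = 0.0207). Eef1a1, Eef1a2, Eef1b2, Eef1d and Eef2 had log2 differences of -0.10, -0.10, -0.08, -0.08 and -0.10 and Eef1g 0.08, with adjusted p between 0.252 and 0.439. The value of Eef1g turned negative (-0.02) when libraries were scaled by total counts alone. Without WT mouse 20 at rest, 888 genes were called in place of 1413.

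Among related lists, the mitochondrial elongation factors differed between sexes. Of 5, 4 were higher in males, Tufm, which delivers tRNA in mitochondria, its exchange factor Tsfm, Gfm1 and Guf1, by log2 0.15 to 0.21 (edgeR adjusted p = 0.0174 to 0.0495), and 3 were called without the library of mouse 15. Tufm was at 51.0 CPM in females and 58.6 CPM in males. Eef1akmt1, a lysine methyltransferase of eEF1A, was lower in males (log2 -0.30, SE 0.05, edgeR adjusted p = 8.66e-04), the 1 of 11 modifiers called. Of the kinases and phosphatases 1 of 20 was called, Prkag3 (log2 0.40, adjusted p = 0.0408). Of the initiation factors Eif2s3x was lower in males (log2 -0.67) and Eif4e3 higher (log2 0.245), and of the ribosomal proteins 3 of 79 were lower in males, Rps4x, Rpl10 and Rpl23a, with 1 called without the library of mouse 15. Of the 7 other cytosolic genes named above and the termination factors 0 were called. Of 12 muscle fiber markers 8 differed between sexes, 3 higher and 5 lower in males, among them the slow fiber genes Myh7 and Tnni1 with log2 -0.51 and -0.40. Of 7 developing muscle markers 4 differed, 3 lower in males, among them Myh8 (log2 -1.14), and 1 higher, Actc1 (log2 0.59). Of 7 satellite cell markers 2 were lower in males. Of the other marker lists (with 5 of 7 immune cell markers tested) 0 tested genes were called for sex. Among these, the 5 Schwann cell markers had log2 differences, males against females, of -1.30 to -0.69 (median -0.78, edgeR adjusted p of 0.0726 or more) and the 5 adipocyte markers -0.84 to -0.48 (median -0.80, adjusted p of 0.286 or more). The 5 blood markers had differences of 0.45 to 0.57 (median 0.51, edgeR adjusted p of 0.171 or more). Their part in the values of the elongation factors was not tested.

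Across mice, Eef2, Eef1d, Eef1a2 and Eef1b2 varied together, and Eef1a1 had correlations near 0 or below with all other members. The correlation of log2 CPM over 25 mice was r = 0.89 for Eef1d and Eef2, 0.79 for Eef1a2 and Eef1d, 0.76 for Eef1a2 and Eef2, and 0.73 for Eef1b2 and Eef1d. Of 7473 protein-coding genes above 10 CPM, Eef1d ranked 1st and Eef1a2 51st by their r with Eef2, against a median of 0.08. Eef1b2 was less close, ranking 612th by its r with Eef2 (0.54) and 339th by its r with Eef1a2 (0.61). Its r with Eef2 was 0.44 without the 2 mice farthest from the median of Eef1b2. Spearman's rho was 0.87 for Eef1d and Eef2 and 0.65 for Eef1a2 and Eef2. With group means removed the same pairs had r of 0.87 (Eef1d and Eef2), 0.87 (Eef1a2 and Eef1d) and 0.83 (Eef1a2 and Eef2), and without the 2 mice farthest from the median of the first gene they had 0.85, 0.69 and 0.58. Eef1a1 had r between -0.25 (Eef1d) and 0.03 (Eef1b2), and its r with Eef1a2 was -0.06. These values moved with how they were taken. With Eef2k the r of Eef1a1 was -0.15, and -0.73 with group means removed. With Eef1g it was -0.03, and -0.41 without the 2 mice farthest from the median of Eef1a1. With Eef1a2 it was 0.19 without those 2 mice. Within groups of at least 6 mice, the r of Eef1a1 and Eef1a2 ran from -0.63 (mD3AKO at rest) to 0.27 (mD3AKO after exercise). Over the 5 WT mice at rest it was 0.64. The points of all pairs share their library, its scaling and its base composition. Neither sex nor the order of mouse numbers was removed here.

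**Figure D5:**
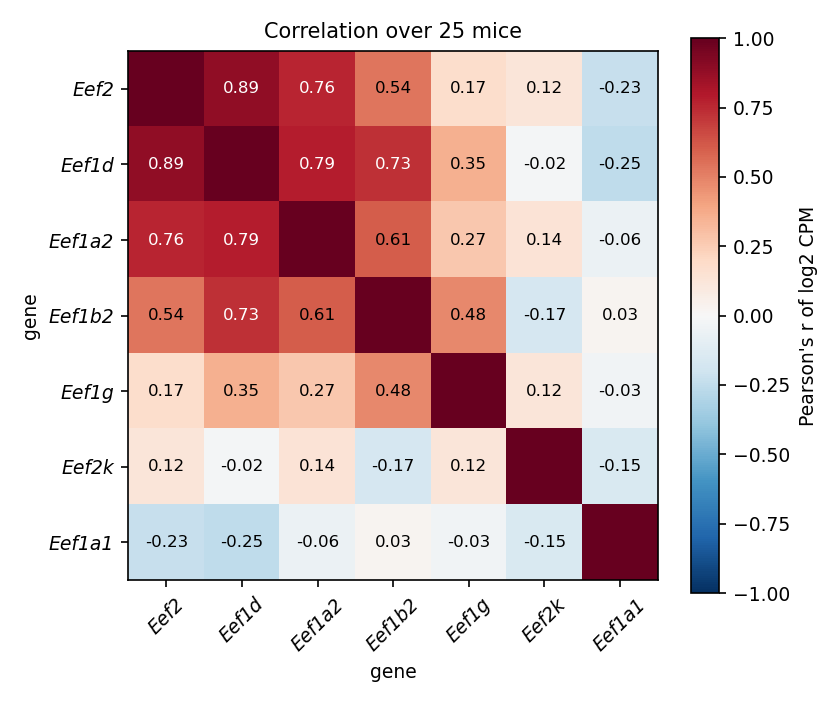
Pearson's r of log2 CPM over 25 mice for each pair of members (color scale from -1 to 1). Eef2, Eef1d, Eef1a2 and Eef1b2 have r of 0.54 to 0.89 with each other, and Eef1a1 has r of -0.25 to 0.03 with the other 6.

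The protein-coding genes above 10 CPM most like Eef1a2 over the 25 mice were Pip4k2b, a phosphoinositide kinase (r = 0.86), Ptp4a3, a phosphatase (r = 0.85), Ivd, an enzyme of leucine breakdown (r = 0.85), Cox6a2, the muscle form of a cytochrome oxidase subunit (r = 0.85), and Synpo (r = 0.84). Within genotype these were 0.77 to 0.92 over 12 WT mice and 0.82 to 0.90 over 13 mD3AKO mice. Gm4366, a copy of Eef1g, was the other pseudogene copy above 1 CPM, at 3.40 CPM over all mice and 1.45% of the counts of Eef1g.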

How the data were processed

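RNA from whole soleus was sequenced by the authors from a stranded total RNA protocol with ribosomal RNA removal and 75-base paired reads. The deposited table holds raw counts per gene, made by the authors with STAR 2.5.3a and featureCounts 1.5.3 (FastQC 0.11.5 for quality) on mm10 with GENCODE M15. The strand setting and the treatment of reads with several matches are not given in the sources used here. The members and gene lists were chosen with earlier results of these data known.

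Symbols for 52403 of 52636 genes came from GENCODE M21. Genes were kept by filterByExpr (minimum count 10, minimum total 15), scaled by TMM and fitted over 4 groups with edgeR 4.0.16 (glmQLFit, glmQLFTest), with main effects as means over the other factor, 8 groups for sex, and Benjamini-Hochberg adjustment over 16340 genes. CPM use TMM-scaled library sizes over tested genes; correlations use log2 CPM with a prior count of 2. DESeq2 1.42.0, other scalings, no filter, a sex term, blocks of mouse numbers, each sex alone, removal of ribosomal RNA genes, addition of pseudogene copies to Eef1a1 and leaving out each mouse were alternatives. The fit was tested on simulated data. Copies were pseudogenes with at least 100 shared 31-base words. Named besides the members were copies above 1 CPM, Dnmt3a, up to 4 called genes of each list and contrast with the lowest adjusted p, and the 5 protein-coding genes most like Eef1a1 and Eef1a2. Outside this rule, genes whose exons overlap a member were named for that overlap, and the 7 other cytosolic genes to show what their list held. Uncalled list genes printed with their values were chosen after those were seen. No column of another sample was in the table. Within groups, 0 of 67 pairs of libraries were identical, and the chi-square of each pair was at least 12.9 per gene. Replicates are separate mice. Counting error is small at these depths, and the spread between mice sets the precision.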

Additional observations from a re-analysis of the deposited data

Results flagged for a closer look

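In 2 of 32 tests of the 7 genes and the ratio within a group, 1 mouse lay far from the others by Dixon's test. Chance flags about 1 in 20 groups. Eef1b2 was at 161.4 CPM in mD3AKO mouse 2 at rest, the next highest of the 7 being 141.5 CPM. Over all groups, the females numbered 1 to 6 had 153.5 to 171.2 CPM of Eef1b2 and those numbered 20 to 25 had 127.5 to 148.7 CPM. Mouse 2 was the only mouse of that first run in its group. The part of this order in the flag was not tested. The share of all tested genes that separate these females was not counted, so the split is not shown to be particular to Eef1b2. Eef2k was at 51.44 CPM in WT mouse 14 at rest, the next highest of the 5 being 44.33 CPM.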

How the results depend on the processing

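The 7 members were not called for exercise or the interaction in any of 36 alternatives, with edgeR or DESeq2 adjusted p from 0.281 for exercise and from 0.992 for the interaction. For sex 0 were called in 7 alternatives and 0 to 1 when each mouse was left out (adjusted p from 0.0207). Small values changed sign: in females alone for exercise Eef1a1 (-0.0004), Eef1a2 (-0.0580), Eef1d (-0.0318) and Eef2 (-0.0590), and for the interaction Eef1a2 (0.0139) and Eef1d (0.0552); in males alone the interaction of Eef1b2 (-0.0219). The exercise value of Eef1a2 was -0.0060 by total counts, -0.0065 with a sex term and -0.0166 with blocks of mouse numbers, and the sex value of Eef1g -0.0227 by total counts. Leaving out each mouse gave, for exercise, -0.0179 to 0.0307 (Eef1a2) and -0.0020 to 0.0440 (Eef1g), and for the interaction -0.0748 to 0.0303 (Eef1a2), -0.0225 to 0.0861 (Eef1b2), -0.0720 to 0.0153 (Eef1d) and -0.0070 to 0.0850 (Eef1g).

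Over all genes 1699 were called for exercise, 927 by total counts, 511 in females alone and 954 in males alone. For genotype 44 were called, 29 by total counts, 81 by DESeq2, 72 with a sex term, 97 with blocks, 6 in females and 23 in males alone. For sex 1413 were called, 756 by total counts and 888 to 1768 with each mouse left out. In each sex alone fewer mice were compared; the cause of the other shifts was not tested. Eef1a1 kept its sign for genotype in 36 of 36 alternatives (0.28 to 0.47), while the small untested genotype values of Eef1a2, Eef1b2 and Eef1g took either sign (-0.0360 to 0.0344, -0.0512 to 0.0150 and -0.0768 to 0.0212). Per coding length the Eef1a1 to Eef1a2 ratio was 0.322 and 0.447 at rest and 0.353 and 0.434 after exercise in WT and mD3AKO. Per longest transcript it was 0.3735 and 0.519 at rest and 0.409 and 0.503 after exercise in WT and mD3AKO. Correlations and list counts without mouse 15 were added after seeing the data, and so were levels per other lengths. No paired analysis was possible because each mouse number occurs once and the groups share none. The sample labels do not say what the order of the numbers stands for. What the blocks of mouse numbers adjust for is therefore not known.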

Other observations

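With group means removed, Eef1a1 and Eef2k had r = -0.73 over the 25 mice, against -0.15 with the groups pooled. Leaving out each mouse in turn gave -0.78 to -0.67. Without mice 7 and 19, the 2 farthest from the median of Eef1a1, it was -0.69, against 0.01 with the groups pooled, values added after seeing the data. It was -0.77 with the means of group and sex removed, a value added after seeing the data. Among groups of at least 6 mice it was -0.91 in mD3AKO mice at rest, -0.82 in mD3AKO mice after exercise and -0.31 in WT mice after exercise. This pair was noted after the values of all 21 pairs were seen, and no test was made. In mD3AKO mice at rest, mouse 7 had 771 CPM of Eef1a1 and the lowest Eef2k of its group (41.8 CPM), and mouse 8 had the lowest Eef1a1 (561 CPM) and the highest Eef2k (60.9 CPM). In mD3AKO mice after exercise, mouse 19 had 773.5 CPM of Eef1a1 and 42.8 CPM of Eef2k.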
